A study of Mus musculus with 2 samples.

Results

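Tcf15-positive and Tcf15-negative mouse embryonic stem cells (ESCs) grown in serum and LIF were compared within 1 library, which mixed cells of 2 lines. Both classes were chosen by measured values, namely the Tcf15 transcripts counted in each cell as unique molecular identifiers (UMIs), so that the Tcf15 difference between them is a description and not a result. The cells had at least 1000 detected genes, at most 10% mitochondrial UMIs and 8000 to 25000 UMIs, and no UMI of the Y-linked genes Ddx3y, Eif2s3y, Kdm5d and Uty or of Gata6, Sox17 and Col1a2, which mark primitive endoderm and fibroblasts. Of 13184 barcodes in the ESC library, 4246 met these conditions. Among them 1516 cells were Tcf15-positive, with 2 or more Tcf15 UMIs, and 1678 cells were Tcf15-negative, with 0 UMIs. The other 1052 cells had 1 Tcf15 UMI and stood in neither class. The whole series held 25611 barcodes.

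Droplet scRNA-seq gave 2 libraries, both labelled as ICR strain. One held ESCs before differentiation (0 h) and the other the 48h-EpiLCs into which they had been differentiated, epiblast-like cells kept for 48 h in N2B27 with activin A, bFGF and KSR. Wild-type (WT) cells carrying the ROSA mT/mG reporter, which transcribes tdTomato, and Cnot8 knockout (KO) cells had been mixed in equal numbers for each library, and the ESCs had grown on feeder fibroblasts. The labels enter both libraries as wild type and point to tdTomato to tell the lines apart, and single cells carried no other mark of their line. By the methods of the study the KO line came from a picked colony of blastocyst origin, so that each line stands for itself. Neither library had a replicate, so no p-value was computed, and every interval below is an exact 95% counting interval that leaves out differences between cultures. Intervals of levels and ratios also leave out the uneven spread of UMIs between cells.

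Tcf15 encodes a basic helix-loop-helix (bHLH) transcription factor known for its role in paraxial mesoderm and somites. It binds E-box DNA motifs as a partner of E proteins, which Tcf3, Tcf4 and Tcf12 encode, and Id proteins act against such pairs by binding E proteins without binding DNA. In ESC cultures Tcf15 is known from a subset of cells described as primed to leave the naïve state, with FGF signalling upstream of it. The gene lies at chr2:152143561-152149097 on the plus strand of GRCm38 (ENSMUSG00000068079). It has 2 exons, chr2:152143561-152144138 and chr2:152148696-152149097, and overlapped no other annotated gene.

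Median depths were 10966 UMIs in the ESC library and 13333 UMIs in that of 48h-EpiLCs. They shared 41 barcodes, 17 of them among the 4246 cells. Cnot8, the targeted gene, was at 43.0 CPM (UMIs of the gene scaled by all UMIs of the cells) in ESCs with a tdTomato UMI and at 74.3 CPM in ESCs with 2 or more Y-linked UMIs. Such 3′ end counts need not cover the targeted exon, so the KO label could not be checked with them.

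Tcf15 separated the lines of the mixture as well as cells within a line. Its level was 141 CPM in 382 ESCs with a tdTomato UMI and no Y-linked UMI, and 28.4 CPM in 2286 ESCs with 2 or more Y-linked UMIs and no tdTomato UMI. In this contrast it had rank 4 from the lowest among 5555 genes of at least 20 CPM. The same contrast in 48h-EpiLCs gave 133 against 31.5 CPM. A filter of 0 Y-linked UMIs does not remove every cell of the other line, so each cell was also given a line score, the log-likelihood ratio of its UMIs over 25 genes that separated tdTomato cells from Y-linked cells by a log2 ratio of at least 1.5 in both libraries. Tcf15, tdTomato and the Y-linked genes were left out of this score, which was set up after the data had been seen. Cells at 3 or above are called WT-scored and cells at -3 or below KO-scored. Of the 382 tdTomato cells 373 were WT-scored, and of 2305 cells with 2 or more Y-linked UMIs 2239 were KO-scored. The score had been built from these same cells but for a few Y-linked ones, so this agreement does not measure its accuracy.

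The Tcf15 classes differed in their line make-up. KO-scored cells made up 47.1% of Tcf15-negative cells (44.7% to 49.5%) but 4.95% of Tcf15-positive cells (3.91% to 6.16%), and 17.9% of cells with 1 Tcf15 UMI. A tdTomato UMI was found in 6.02% of negative cells and in 12.2% of positive cells. Among the 3159 WT-scored cells alone, of which 1427 were positive and 876 negative, the tdTomato shares were 12.6% (10.9% to 14.4%) and 11.1% (9.07% to 13.3%), and the intervals overlapped. Line and Tcf15 class are therefore mixed in the comparison of all 4246 cells, and each result is given for the WT-scored cells as well.

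**Figure D1:**
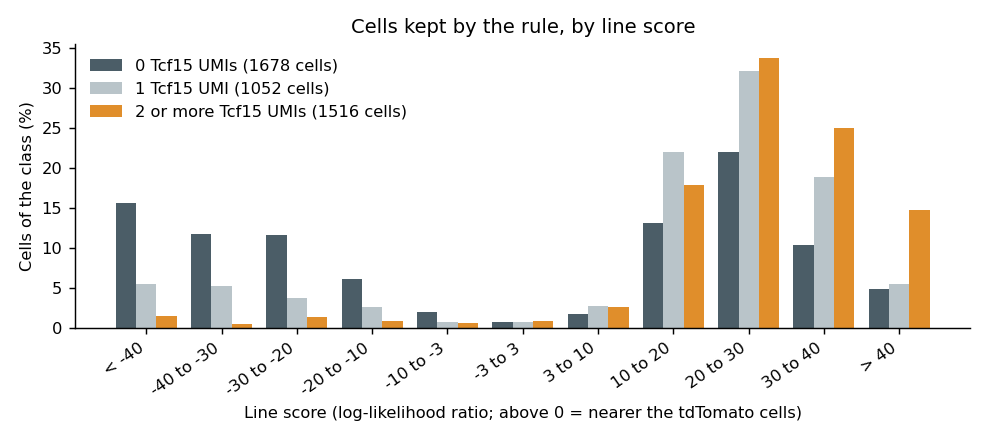
Share of cells (%, y axis) by bin of the line score (log-likelihood ratio, x axis) for cells with 0, 1, and 2 or more Tcf15 UMIs among the 4246 cells kept. Cells with 0 UMIs form a group at either end of the axis, whereas 94.1% of cells with 2 or more UMIs lie at 3 or above.

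Within the WT-scored cells Tcf15 was at 144 CPM (140 to 147). At least 1 UMI was present in 72.3% of cells and 2 or more in 45.2%. Thinning every cell to 8000 UMIs lowered these shares to 59.8% and 29.8%. The largest count in a cell was 14 UMIs. In the KO-scored cells with Y-linked UMIs the level was 26.0 CPM (24.3 to 27.9), and 2.59% of cells (1.97% to 3.34%) had 2 or more UMIs after thinning. Feeder fibroblasts, which should lack Tcf15, served as background. Among 37 fibroblast-type cells, with 20 or more UMIs of Col1a1, Col1a2 and Col3a1, Tcf15 was at 9.61 CPM (3.53 to 20.9), 10.8% (3.03% to 25.4%) had 1 or more UMIs and 0 had 2 or more after thinning, which allows a share of up to 9.49%. Median depths were 12362 UMIs for WT-scored cells, 13107 for KO-scored cells and 16640 for fibroblast-type cells. Before thinning, 2 of the 37 fibroblast-type cells (5.41%, 0.661% to 18.2%) had 2 or more UMIs, so the threshold lets some background through. The WT-scored shares lay above the fibroblast-type intervals at either depth. KO-scored cells did not, with 7.19% (6.15% to 8.34%) at 2 or more UMIs before thinning, and after it the shares at 1 or more (16.4%, 14.9% to 18.0%) and at 2 or more UMIs were not separable from background either. The summed levels did differ, since 24.3 to 27.9 CPM in KO-scored cells lay above 3.53 to 20.9 CPM in fibroblast-type cells. The fibroblast-type level rests on 6 Tcf15 UMIs.

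The spread of Tcf15 between WT-scored cells exceeded counting error. Its squared deviation from the count that each cell's depth predicts was 2.00 times the predicted count, where counting error alone gives a value near 1. For 511 genes whose mean lay close to that of Tcf15 the median of this ratio was 1.1, and 13 of the 511 lay above Tcf15. The share of positive cells followed depth. It was 33.4% in WT-scored cells of 8000 to 10000 UMIs and 68.5% in those of 20000 to 25000 UMIs, while the Tcf15 level was 155 and 150 CPM in these bins. A cell with 0 UMIs may therefore transcribe Tcf15, and positive cells were the deeper class, with medians of 12968 against 11929 UMIs. All levels below are CPM of summed UMIs, in which the depth of each class is scaled out.

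**Figure D2:**
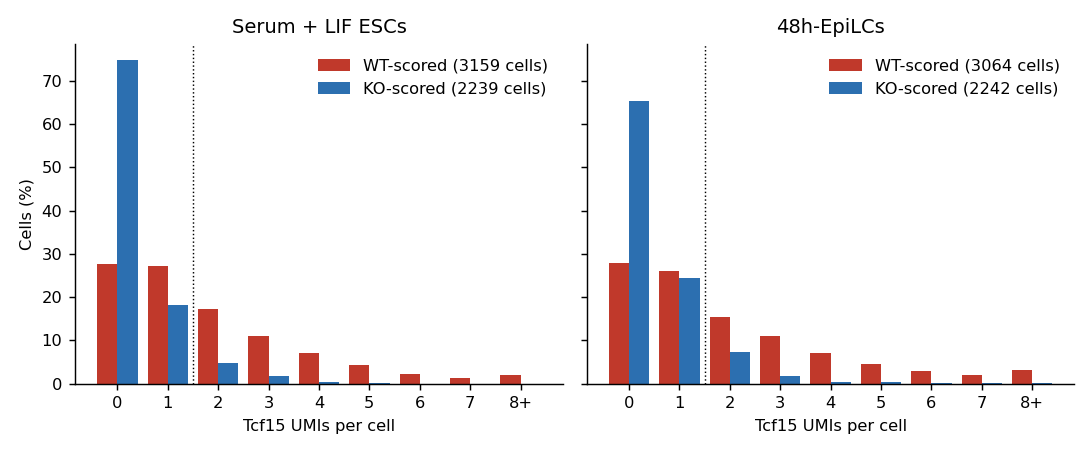
Share of cells (%, y axis) by Tcf15 UMIs per cell (x axis) in WT-scored and KO-scored cells of the ESC library (left) and the 48h-EpiLC library (right), with the threshold between 1 and 2 UMIs dotted. In both libraries the KO-scored cells pile up at 0 UMIs, whereas 2 or more UMIs are found in 45.2% of WT-scored ESCs and 46.2% of WT-scored 48h-EpiLCs.

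Among all 4246 cells, 5438 genes had at least 20 CPM as the mean of both classes. Called genes are those that differed by 1.5-fold or more on the scale of log2(CPM + 1). Of these genes 29 (0.533%) were higher and 65 (1.2%) lower in Tcf15-positive cells, and the median log2 ratio of all of them was -0.03. Genes that separate the lines led the list. The lowest was Gm10260, at 42.3 CPM in positive and 219 CPM in negative cells, followed by Gm11361 (9.91 and 43.7 CPM) and Ipp (11.6 and 49.4 CPM). The highest was Apoa2, an apolipoprotein gene, with 35.8 against 18.2 CPM. All 4 are genes of the line score, so that a split by this score removes most of their difference by construction. Zfp42, the naïve marker also known as Rex1, is not part of the score and lost its difference too. Its level in all cells was 317 CPM in positive and 454 CPM in negative cells, but among WT-scored cells it was 301 and 296 CPM (log2 ratio 0.02, -0.04 to 0.09). The 17 glycolysis and hypoxia genes tested had a median log2 ratio of 0.21 in all cells, and 18 tested among WT-scored cells had 0.03.

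Restricting the comparison to WT-scored cells left 5308 genes, of which 16 (0.301%) were higher and 8 (0.151%) lower in Tcf15-positive cells, with a median log2 ratio of 0.01. The higher genes were Bmp4, Gbx2, Soga3, Ccnd2, Cntfr, Zfp423, Lef1, Fgf17, Ppm1j, Halr1, Pitpnc1, Rhoc, Fam169a, Ppp2r5a, Bin1 and Etv4. The lower genes included Lefty1, H19, Calcoco2, Id2, Fabp3, Ifitm1 and Fgd4. Of the 29 genes higher in all cells, 8 also passed 1.5-fold among the WT-scored cells, which are a subset of the same cells, and of the 65 lower genes 4 did. Another 4 of the 29 and 9 of the 65 were genes of the line score and were left out there. In total 25 of the 29 and 43 of the 65 were tested there, and the remaining lower genes fell under 20 CPM.

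**Figure D3:**
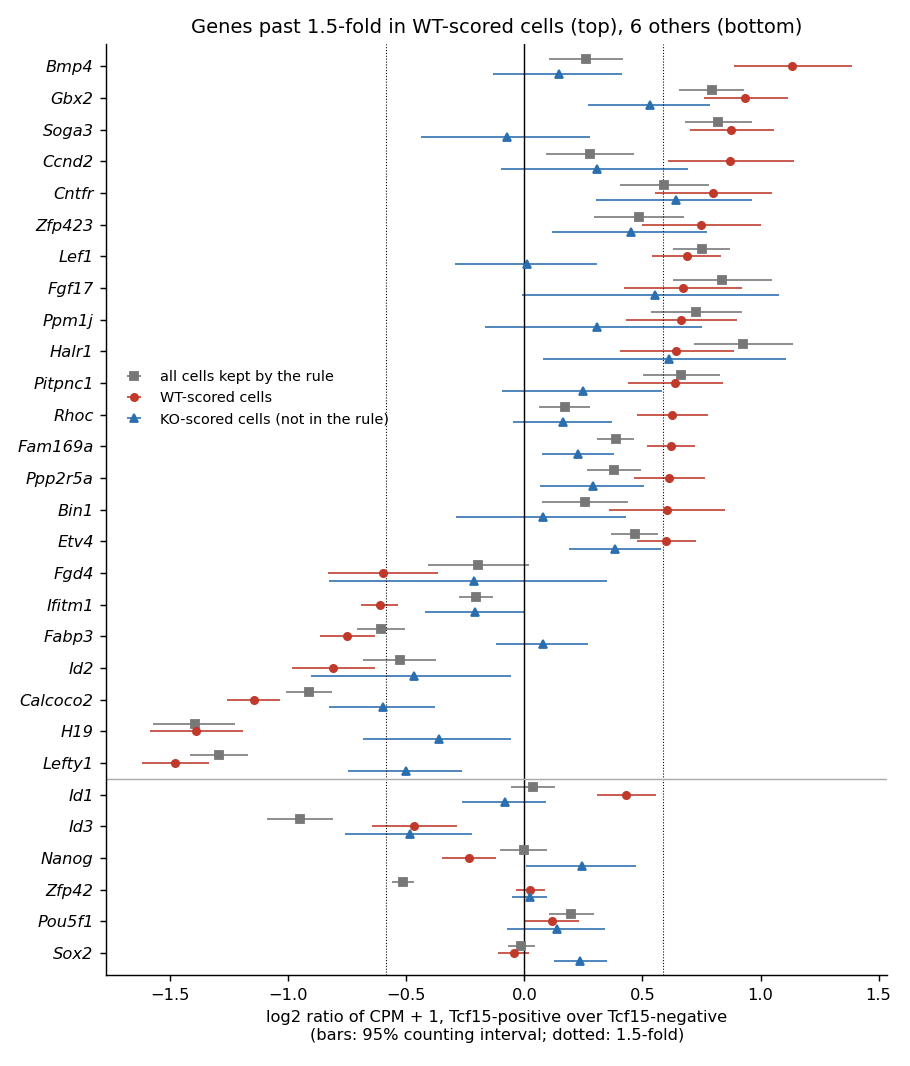
log2 ratio of CPM + 1, Tcf15-positive over Tcf15-negative cells (x axis), for genes past 1.5-fold among WT-scored ESCs and 6 further genes (y axis), with 95% counting intervals and 1.5-fold dotted. Squares are all cells kept by the rule, circles WT-scored cells and triangles KO-scored cells, which the rule left out. Bmp4 has 1.13 in WT-scored cells but 0.26 in all cells, and Zfp42 has -0.51 in all cells but 0.02 in either line.

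Ligands and their targets in the BMP pathway stood on both sides. Bmp4, the ligand that together with LIF sustains ESCs in serum-free culture, had the highest ratio, with 35.1 CPM in positive and 15.4 CPM in negative WT-scored cells (log2 ratio 1.13, 0.89 to 1.39). In all cells its levels were 35.8 and 29.8 CPM (log2 ratio 0.26, 0.10 to 0.42), whereas Y-linked cells, described further on, held 48.4 and 43.7 CPM when KO-scored. A Bmp4 UMI was found in 28.7% of positive and 14.5% of negative cells, and after thinning to 8000 UMIs in 20.6% (18.5% to 22.8%) and 11.2% (9.18% to 13.5%). Among fibroblast-type cells the thinned share was 5.41% (0.661% to 18.2%). Id1, a BMP target, was higher but below 1.5-fold, at 91.7 against 67.8 CPM (log2 ratio 0.43, 0.31 to 0.56). Id2, which codes for another Id protein, went the other way. Its level was 27.7 CPM in positive and 49.4 CPM in negative cells (log2 ratio -0.81, -0.99 to -0.63). Id3 was at 29.3 and 40.8 CPM (log2 ratio -0.47, -0.65 to -0.28). Of the 15 genes listed for the BMP pathway 7 had at least 20 CPM, with 1 called in each direction, and their median log2 ratio was 0.18. The other members tested, the receptor gene Bmpr1a, the inhibitory Smad7 and the pseudoreceptor gene Bambi, had ratios of -0.05, 0.18 and 0.18.

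E-protein partner genes differed little. Tcf3 was at 52.0 CPM in positive and 46.4 CPM in negative WT-scored cells (log2 ratio 0.16, 0.01 to 0.32). Tcf4 was at 45.1 and 44.0 CPM, and Tcf12, under 20 CPM, at 15.1 and 18.6 CPM. The Notch target and bHLH repressor gene Hes1 was at 28.8 and 22.3 CPM (log2 ratio 0.35, 0.13 to 0.57). Of 12 listed bHLH partner and Id genes 6 were tested and Id2 alone was called.

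Promoter windows show the letters that such bHLH pairs could read in the called genes. They are printed for Bmp4, Gbx2 and Id2, the called genes on the chosen lists that had a single window in the RefSeq table (GRCm38.p6), from 250 bases before to 50 bases after the start, 5′ to 3′ on the gene's strand, with each CANNTG in capitals. This motif reads the same on both strands.
Gbx2, chr1:89931127-89931426, minus strand: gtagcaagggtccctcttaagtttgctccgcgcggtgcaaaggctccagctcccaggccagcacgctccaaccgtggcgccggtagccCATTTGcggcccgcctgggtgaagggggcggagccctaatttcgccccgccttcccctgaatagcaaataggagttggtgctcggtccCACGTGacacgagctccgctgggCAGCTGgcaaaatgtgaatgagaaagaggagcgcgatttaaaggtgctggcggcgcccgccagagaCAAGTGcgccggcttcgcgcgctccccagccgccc
Bmp4, chr14:46390620-46390919, minus strand: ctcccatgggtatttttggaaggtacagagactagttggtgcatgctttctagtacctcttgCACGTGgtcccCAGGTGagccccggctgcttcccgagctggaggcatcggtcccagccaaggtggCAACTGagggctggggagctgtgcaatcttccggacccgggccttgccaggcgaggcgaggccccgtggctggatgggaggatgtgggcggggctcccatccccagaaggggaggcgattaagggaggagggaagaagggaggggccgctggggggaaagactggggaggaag
Id2, chr12:25096043-25096342, minus strand: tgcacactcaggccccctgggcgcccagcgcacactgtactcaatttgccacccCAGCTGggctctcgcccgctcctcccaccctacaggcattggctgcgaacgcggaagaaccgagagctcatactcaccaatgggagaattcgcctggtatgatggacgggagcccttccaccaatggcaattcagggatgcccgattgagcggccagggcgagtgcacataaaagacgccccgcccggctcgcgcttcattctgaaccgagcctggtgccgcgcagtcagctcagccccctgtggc
The windows held 4, 3 and 1 E-boxes. Of 32851 windows of 300 bases in the table, 72.3% held at least 1 and 17.6% held 3 or more. Of the 24 called genes 16 had a window, some of them several, and of their 28 windows 21 held an E-box, a share close to that of all windows. These matches are descriptions of sequence, not binding sites.

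Genes of LIF and CNTF signalling included 2 that were called, Gbx2 and Cntfr. Gbx2, a homeobox gene and LIF target that can sustain ESC self-renewal (ENSMUSG00000034486, chr1:89927956-89931179), was at 59.8 CPM in positive and 30.8 CPM in negative WT-scored cells (log2 ratio 0.94, 0.76 to 1.12). A UMI of it was found in 33.7% (31.3% to 36.2%) and 18.9% (16.4% to 21.7%) of the cells after thinning, against 2.7% of fibroblast-type cells (0.0684% to 14.2%). Cntfr, which codes for the ligand-binding subunit of the CNTF receptor (ENSMUSG00000028444, chr4:41657498-41697089) and was on no list, was at 29.3 and 16.5 CPM (log2 ratio 0.80, 0.55 to 1.05). Of 14 listed LIF/STAT3 genes 13 were tested, and 11 had ratios above 0, against 2925 of all 5308 genes. Their median log2 ratio was 0.15, and Gbx2 was the one called. The receptor gene Lifr (24.6 and 20.1 CPM), the kinase gene Pim1 (145 and 117 CPM) and the feedback gene Socs2 (84.4 and 71.1 CPM) had ratios of 0.28, 0.31 and 0.25. Jak1 and Tfcp2l1 were the 2 below 0, at -0.15 and -0.18.

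Of the genes tied to FGF/ERK signalling, Fgf17 and Etv4 were called. Fgf17, an FGF ligand gene of the Fgf8 subfamily that was on no list, was at 27.1 CPM in positive and 16.6 CPM in negative WT-scored cells (log2 ratio 0.67, 0.42 to 0.92). Etv4, an ETS factor downstream of FGF, was at 97.5 and 63.9 CPM (log2 ratio 0.60, 0.48 to 0.73). Spry4, a feedback inhibitor, was at 55.9 and 38.2 CPM (log2 ratio 0.54, 0.38 to 0.71), and the ERK phosphatase gene Dusp6 was at 48.9 and 35.6 CPM (log2 ratio 0.45, 0.28 to 0.62). The ligand gene Fgf4, the main FGF of ESCs, did not follow. Its level was 129 and 127 CPM (log2 ratio 0.02, -0.07 to 0.12), although among all cells it had been 125 and 98.0 CPM. Fos, an immediate early gene, was lower, at 36.8 and 45.7 CPM (log2 ratio -0.31, -0.47 to -0.14). Of 20 listed genes 14 were tested, 9 (64.3%) lay above 0, against 55.1% of all 5308 genes, the median was 0.10, and Etv4 alone was called.

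The formative panel, genes that mark the step after the naïve state, had a median log2 ratio of 0.33 over 10 tested genes, 9 of them above 0, against 2925 of all 5308 genes (55.1%), and 2 were called. Lef1, which codes for a Wnt effector, was at 76.5 and 47.2 CPM (log2 ratio 0.69, 0.54 to 0.83), and Etv4 was the other called gene. Pou3f1, also known as Oct6, was at 80.0 and 61.7 CPM (log2 ratio 0.37, 0.24 to 0.50). The de novo DNA methyltransferase gene Dnmt3a was at 133 and 103 CPM (log2 ratio 0.36, 0.26 to 0.47). The panel did not move as a block. Dnmt3b was at 202 and 207 CPM, and Otx2, which stayed under 20 CPM, was at 15.1 and 16.5 CPM. Zic2 and Zic5, also under 20 CPM, were at 8.59 against 15.6 and at 16.7 against 21.9 CPM. In all cells the panel median was 0.09. Over the Wnt genes, of which Lef1 is one, 4 of 15 were tested, 3 (75%) lay above 0 and the median was 0.22, with so few genes that the share says little beside the 55.1% of all genes.

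The naïve and core panels were level. Among WT-scored cells the 10 naïve genes tested had a median log2 ratio of -0.00, 5 of them above 0 and none called, and the 6 core genes had 0.01. Nanog was at 82.7 CPM in positive and 97.6 CPM in negative cells (log2 ratio -0.23, -0.35 to -0.12). Tbx3 was lower too, at 32.9 and 39.2 CPM (log2 ratio -0.24, -0.42 to -0.06). The share of cells with a Nanog UMI did not differ beyond its interval. After thinning it was 41.3% (38.8% to 44.0%) in positive and 42.8% (39.5% to 46.2%) in negative cells. Klf4, Klf5 and Nr0b1 were slightly higher, with log2 ratios of 0.14, 0.15 and 0.16. Esrrb was at 49.7 and 50.7 CPM, Pou5f1 at 97.0 and 89.4 CPM, and Sox2 at 256 and 264 CPM. Read the other way, Tcf15 did not follow Nanog. It was at 141 CPM (135 to 146) in 1453 WT-scored cells with no Nanog UMI and at 139 CPM (130 to 149) in 424 cells with 3 or more. Some low naïve genes were lower in positive cells, Dppa3 with 9.93 against 18.3 CPM and Tfap2c with 9.42 against 14.8 CPM, but these stayed under 20 CPM and entered no count.

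**Figure D4:**
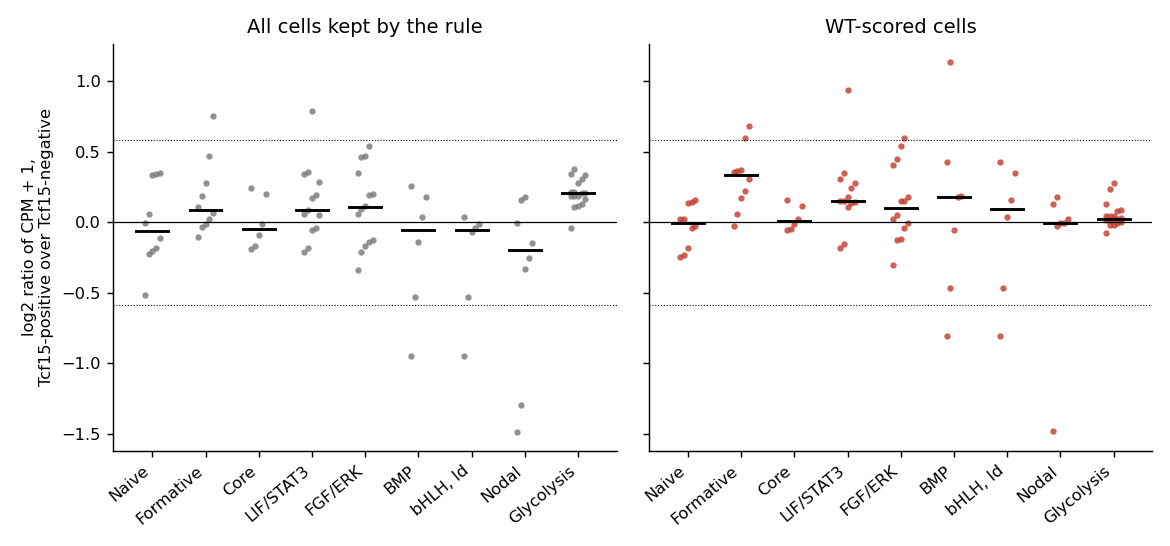
log2 ratio of CPM + 1, Tcf15-positive over Tcf15-negative cells (y axis), of each tested gene of 9 lists (x axis) in all cells kept by the rule (left) and in WT-scored cells (right), with list medians as bars and 1.5-fold dotted. From left to right panel the formative median goes from 0.09 to 0.33 and the glycolysis median from 0.21 to 0.03.

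Lefty1, a feedback inhibitor of Nodal, had the lowest ratio of the 5308 genes. This secreted antagonist (ENSMUSG00000038793, chr1:180935022-180938400), was at 34.4 CPM in positive and 97.6 CPM in negative WT-scored cells (log2 ratio of Lefty1 -1.48, -1.62 to -1.34). After thinning, a UMI of it was found in 14.1% (12.3% to 16.0%) and 25.6% (22.7% to 28.6%) of the cells. Few cells held most of it, since 31 of the 876 negative cells held 50% of its 1061 UMIs. Its neighbour Lefty2 was at 13.3 and 26.4 CPM (log2 ratio -0.94), just under the filter. Nodal itself was at 59.1 and 60.1 CPM (log2 ratio -0.02, -0.16 to 0.12), and its coreceptor gene Tdgf1 at 857 and 782 CPM (log2 ratio 0.13, 0.09 to 0.17). Lefty1 was thus the one called gene among 7 tested of the 15 listed for the pathway, whose median was -0.00.

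Outside the lists, Ccnd2, a G1 cyclin gene, was at 26.6 CPM in positive and 14.1 CPM in negative WT-scored cells (log2 ratio 0.87, 0.61 to 1.14). After thinning, a Ccnd2 UMI was found in 14.8% and 9.59% of these classes, but in 83.8% of fibroblast-type cells. In all cells its ratio was 0.28, and -0.61 once cells with Gata6, Sox17 or Col1a2 UMIs were kept, against 0.76 for WT-scored cells with the same filter dropped. Ccnd1, another such gene and a member of the Wnt list, was at 185 and 137 CPM (log2 ratio 0.43, 0.34 to 0.52). Phase genes were close, with 3747 and 3673 summed CPM for 24 S-phase genes and 4051 and 3829 for 25 G2/M genes. Zfp423, a zinc-finger factor gene known to act with BMP-activated Smads, was at 27.4 and 15.9 CPM (log2 ratio 0.75, 0.50 to 1.00). Soga3 (57.7 and 31.0 CPM) and the small GTPase gene Rhoc (71.2 and 45.8 CPM) had log2 ratios of 0.88 and 0.63. Halr1, a noncoding transcript of the Hoxa region, was at 28.2 and 17.7 CPM. On the lower side, the imprinted noncoding RNA H19 was at 18.1 and 48.9 CPM (log2 ratio -1.39, -1.59 to -1.19). Few cells held most of it, since 20 of the 876 negative cells held 50% of its 532 UMIs. Its thinned share was 10.4% in positive, 18.4% in negative and 43.2% in fibroblast-type cells. Calcoco2, which codes for an autophagy receptor, was at 60.8 and 136 CPM (log2 ratio -1.15, -1.26 to -1.04). Fabp3 (63.3 and 107 CPM), a fatty acid carrier gene, and Ifitm1 (145 and 222 CPM), an interferon-inducible transmembrane gene, had ratios of -0.75 and -0.61. Bmp4, Gbx2, Lef1, Ccnd2 and H19 overlap other annotated genes. Those of Bmp4, Gbx2 and Ccnd2 lie on the opposite strand. Lef1 and H19 also overlap Gm42449 and Mir675 on their own strand, whose reads could be shared with them.

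Markers of other cells differed little between the classes, with 1 exception. Msgn1 was at 0 UMIs in both classes of WT-scored cells, Tbx6 at 0.206 and 0 CPM and Meox1 at 1.44 and 0.827 CPM. Dll1, at 8.90 and 13.2 CPM, and Meox2, at 0.103 and 0.827 CPM, were lower in positive cells. The 16 paraxial mesoderm genes, the lineage in which Tcf15 is best known, summed to 29.1 CPM in positive and 31.4 CPM in negative cells, and 0 of them reached 20 CPM. Primitive streak genes summed to 7.77 and 6.16 CPM. Lists for primitive endoderm (269 and 280 CPM), fibroblasts (399 and 353 CPM) and neural cells (51.1 and 49.9 CPM) were also close. Most of the primitive endoderm sum was Sparc (204 and 215 CPM), and most of the fibroblast sum was Vim (270 and 235 CPM). Gata6, Sox17 and Col1a2 were at 0 by the filter. The primitive endoderm and fibroblast sums therefore say little about admixed cells of these types. Trophectoderm genes differed, with 36.9 CPM in positive and 87.2 CPM in negative cells, mostly through Krt8 (6.43 and 27.4 CPM) and Krt18 (7.56 and 27.5 CPM). Ascl2 (11.8 and 15.6 CPM), Hand1 (1.70 and 6.25 CPM) and Gata3 (2.37 and 3.68 CPM) were also lower, and Eomes (3.24 and 2.30 CPM) was higher. In the negative class 5 cells held 50% of the 298 Krt8 UMIs. The defining markers Cdx2 (0.617 and 1.01 CPM) and Elf5 (0.0515 and 0.368 CPM) were near 0, and Psg29 and Tpbpa were at 0. Cells with 3 or more UMIs of Krt8 and Krt18 made up 2.28% of negative (1.4% to 3.5%) and 0.42% of positive cells. Without them 16 genes were higher and 6 lower, and Fabp3 (-0.58) no longer passed 1.5-fold. H19 went from -1.39 to -0.86 but stayed past it, as did Lefty1 (-1.50), Calcoco2 (-1.06) and Id2 (-0.67).

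Levels were also read at each number of Tcf15 UMIs, just outside and just inside the threshold included. WT-scored cells with 1 Tcf15 UMI had 46.2 CPM of Gbx2 and those with 2 UMIs 50.6 CPM, between 30.8 CPM at 0 and 66.6 CPM (60.9 to 72.7) at 4 or more. Lefty1 went from 97.6 CPM at 0 through 62.0 at 1, 45.0 at 2 and 40.5 at 3 to 20.5 CPM (17.4 to 24.0) at 4 or more. Cntfr was at 16.5, 19.9, 25.3, 28.0 and 34.0 CPM over the same steps. These 3 genes kept 1 direction over all steps. Bmp4 did not, with 15.4 CPM at 0, 24.7 at 1, 37.6 at 2, 28.2 at 3 and 37.0 CPM at 4 or more. Between 1 and 2 UMIs the intervals overlapped for Gbx2 (42.2 to 50.5 and 45.5 to 56.1) but not for Lefty1 (57.37 to 66.97 and 40.2 to 50.2) or Bmp4 (21.8 to 27.8 and 33.2 to 42.4). Id2 was at 49.4 CPM at 0, 33.5 at 1 and 27.4 to 28.8 CPM from 2 on. Zfp42 stayed between 296 and 302 CPM.

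**Figure D5:**
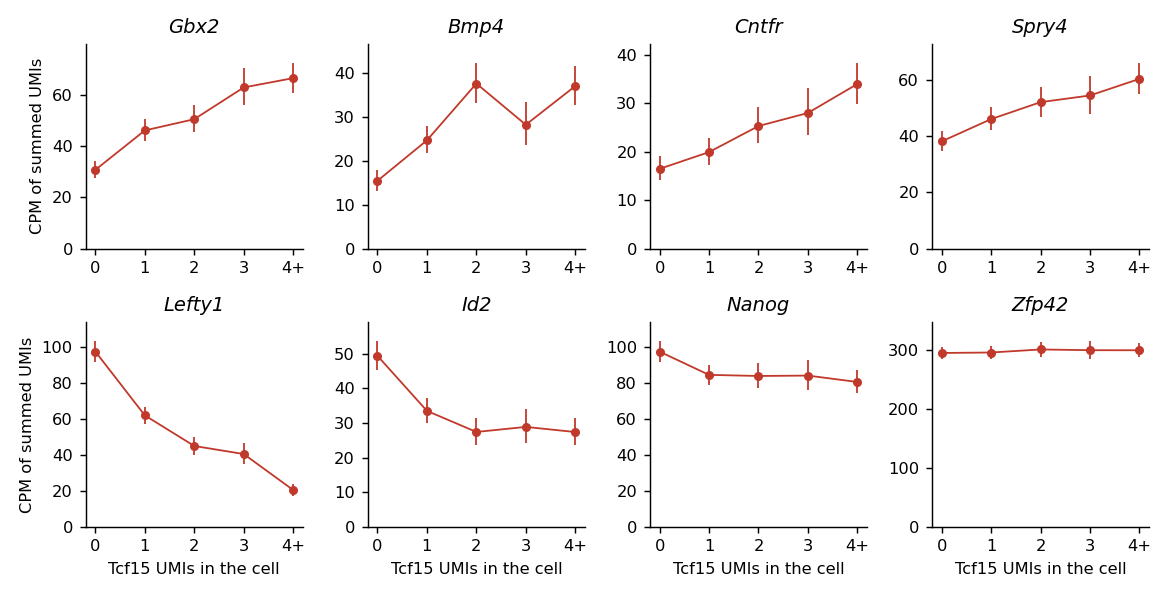
CPM of summed UMIs (y axis, 95% counting intervals) of 8 genes in WT-scored ESCs with 0, 1, 2, 3, and 4 or more Tcf15 UMIs (x axis; 876, 856, 545, 347 and 535 cells). Gbx2, Cntfr and Spry4 step up and Lefty1 steps down, from 97.6 to 20.5 CPM, while Zfp42 stays level.

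Cells of the other line, which the rule left out, gave the same comparison a second time within the same library. Of 2305 ESCs with 2 or more Y-linked UMIs 187 were Tcf15-positive and 1690 negative. Of 5687 genes 13 (0.229%) were higher and 5 (0.0879%) lower. Among the KO-scored cells of this group, 161 positive and 1673 negative, 5 of 5675 genes (0.0881%) were higher and 4 (0.0705%) lower, with a median log2 ratio of 0.00. Positive cells were deeper here as well, with medians of 15863 and 12885 UMIs, and the 6 listed markers of the WT line summed to 59.6 CPM in them against 22.9 CPM in negative cells. A tdTomato UMI was found in 1.86% of positive (0.386% to 5.35%) and 0.478% of negative cells (0.207% to 0.940%). The Y-linked genes were at 183 and 212 CPM. The part of these differences in the results was not tested. As given above, the share of KO-scored cells with 2 or more Tcf15 UMIs was not separable from background. The summed Tcf15 level of all KO-scored cells lay above the fibroblast-type interval. Cntfr was at 35.4 and 22.3 CPM (log2 ratio 0.64, 0.30 to 0.96) and Calcoco2 at 68.0 and 104 CPM (log2 ratio -0.60, -0.83 to -0.38), both past 1.5-fold. Gbx2 (0.53, 0.27 to 0.79), Spry4 (0.50, 0.22 to 0.77), Etv4 (0.39, 0.19 to 0.58), Lefty1 (-0.50, -0.75 to -0.26), Id3 (-0.49, -0.76 to -0.22) and Id2 (-0.47, -0.90 to -0.06) lay on the same side as in WT-scored cells with intervals that left out 0. Bmp4 was at 48.4 and 43.7 CPM (log2 ratio 0.15, -0.13 to 0.41), Lef1 at 40.0 and 39.6 CPM, and Id1 at 111 and 117 CPM, and their intervals held 0. Of the 16 genes higher in WT-scored cells 13 were tested here, 12 of which lay above 0, against 2874 of all 5675 genes. Of the 8 lower genes 7 were tested and 6 lay below 0. The difference between the lines was not tested.

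In the 48h-EpiLC library, where formative genes are switched on, Tcf15 was at 136 CPM (133 to 140) in 3064 WT-scored cells, close to the ESC level. The Y-free 48h-EpiLCs gave 7 higher (0.128%) and 39 lower genes (0.714%) of 5460 tested. WT-scored 48h-EpiLCs, 1415 positive and 854 negative, gave 2 higher (0.0372%) and 10 lower genes (0.186%) of 5374. Markers of other cells differed between these classes. Trophectoderm genes summed to 112 CPM in positive and 149 CPM in negative cells, with Krt8 (24.2 and 44.1 CPM) called lower, and 2-cell-type genes to 1.28 and 15.3 CPM, and their part in the results that follow was not tested. The higher genes were Dusp4 (46.1 and 27.6 CPM, log2 ratio 0.72, 0.54 to 0.90), a phosphatase gene of ERK feedback, and Ier3 (145 and 96.4 CPM, log2 ratio 0.59, 0.49 to 0.69), an immediate early gene. Of 12 immediate early genes tested, 5 (41.7%) lay above 0, against 54.8% of all genes, and their median log2 ratio was -0.02. FGF/ERK genes had a median log2 ratio of 0.28, with 13 of 16 above 0, against 2944 of 5374 genes and a median of 0.01 for all. Spry4 (32.2 and 22.8 CPM), Dusp6 (81.6 and 57.3 CPM) and Etv4 (48.1 and 36.1 CPM) had ratios of 0.48, 0.50 and 0.40. The formative median was 0.18, with Pou3f1 at 468 and 351 CPM (log2 ratio 0.42, 0.36 to 0.47). Lefty1 was at 387 and 617 CPM (log2 ratio -0.67, -0.72 to -0.63), so that it was lower in Tcf15-positive cells at both stages. Gbx2 was at 21.6 and 7.52 CPM, under the filter. Bmp4 was nearly gone, at 2.61 and 3.60 CPM, and Id2 (19.4 and 19.7 CPM) and Id3 (23.6 and 23.7 CPM) did not differ beyond their counting intervals. The lower genes included Fabp3 and Ifitm1, as in ESCs. Dppa3, a naïve and germline gene, was at 15.4 and 34.8 CPM (log2 ratio -1.13, -1.34 to -0.92).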

How the data were processed

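Both libraries were made with a 3′ end droplet kit, and per the labels and the methods the authors ran Cell Ranger (version 3.0.2) with mm10 and an added tdTomato sequence. The deposited values were raw UMI counts per gene and barcode. The submitters' notes also name Seurat (version 4). Here cells were filtered as stated in the report, UMIs were summed per class and scaled to CPM, and ratios were taken as log2(CPM + 1) with exact binomial counting intervals (scipy 1.17.1, numpy 2.4.6). Counts are UMIs, and intervals cover counting error only. The summing was tested on simulated data. No doublets were removed, and the 10.2% of ESCs with the highest doublet scores (neighbours among simulated doublets) were left out as an alternative. Line scores were added after the data had been seen. Named genes were Tcf15, list members, the 15 highest and 15 lowest by ratio, and, added later, genes past 1.5-fold in WT-scored cells. Members and gene lists were chosen with earlier results of these data known. Of 32286 features, 99.6% matched GENCODE vM21 on GRCm38. The value of 1 called gene is not reported here, although the counts include it.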

Additional observations from a re-analysis of the deposited data

Results flagged for a closer look

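In total 5 listed genes had counting intervals on opposite sides of 0 in WT-scored and in KO-scored ESCs. They were chosen after their values were seen, among all list members and called genes tested in both lines, and the difference between the lines was not tested. The share of such genes among all genes tested in both lines was not counted, so 5 cannot be called many or few. Some intervals ended close to 0, such as 0.006 to 0.47 for Nanog in KO-scored cells. That of Gapdh in WT-scored cells was -0.041 to -0.0009. Nanog was lower in Tcf15-positive WT-scored cells (log2 ratio -0.23) and higher in Tcf15-positive KO-scored cells (67.2 against 56.7 CPM, log2 ratio 0.24), a difference of -0.48. As given above, the thinned shares of WT-scored cells with a Nanog UMI had overlapping intervals. Tbx3 had -0.24 and 0.37 (46.1 against 35.6 CPM in KO-scored cells), a difference of -0.61. Hmmr, a spindle gene, had 0.11 and -0.22, a difference of 0.34, and Top2a, a topoisomerase gene of dividing cells, had 0.08 and -0.12, a difference of 0.20. Gapdh had -0.02 and 0.08, a difference of -0.11.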

How the results depend on the processing

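No paired analysis was possible because each group had 1 library. The number of genes tested differed between the settings below, with 5308 in WT-scored cells and more at 5 CPM. Counts under different settings are therefore not shares of the same genes. In all cells kept by the rule, the main counts were 29 higher and 65 lower genes of 5438 tested. They became 13 and 39 with Tcf15 at 1 UMI or more, 10 and 23 when Ipp and Nr1h5 also had to be at 0, 94 and 133 with no filter on Y-linked UMIs, 66 and 225 at 5 CPM, and 16 and 8 in WT-scored cells. Weighting negative cells to the depth of positive cells gave 19 higher genes, and dropping the filter on Gata6, Sox17 and Col1a2 gave 117 lower genes. The formative median of 0.09 became 0.20 with Ipp and Nr1h5 at 0 and 0.33 in WT-scored cells, and the naïve median became -0.19 at 5 CPM. The share of positive cells, 35.7%, was 31.9% with a lower limit on the highest depth, 41.8% with Ipp and Nr1h5 at 0, 23.3% with no filter on Y-linked UMIs, 23.7% after thinning and 45.2% in WT-scored cells. Among WT-scored cells, alternatives chosen after seeing the data gave 25 higher and 13 lower genes for Tcf15 at 3 UMIs or more, 6 higher genes at 1 UMI or more, 37 and 33 genes with a formative median of 0.20 at 5 CPM, and shares of positive cells of 41.7% with that lower limit and 29.8% after thinning. Higher genes went from 13 to 5 in KO-scored against all Y-linked cells, and in 48h-EpiLCs from 7 to 2 with lower genes from 39 to 10 in WT-scored against all Y-free cells. Other alternatives (doublet scores, mitochondrial filter, scaling, centring, pseudocount, per-cell means, keratin cells, line score of 6 or more) kept counts within 1.5 times. Of the values followed for single genes 84 moved beyond their counting interval and 704 did not. In all cells without the filter on Gata6, Sox17 and Col1a2 Ccnd2 went from 0.28 to -0.61, and without the filter on Y-linked UMIs Ifitm1 went from -0.21 to 0.17; neither was called there at first. Both kept their sign within WT-scored cells under every setting in which they were tested (0.76 to 0.98 and -0.67 to -0.50). Ccnd2, whose level was near the 20 CPM filter, was tested in 15 settings and Ifitm1 in 17, the main one included. Dnmt3a, Id1, Nanog and Zfp42, all below 1.5-fold in all cells, also changed sign under at least 1 alternative. The cause of these changes was not tested. Depth limits the class of negative cells, since 0 UMIs do not show that a cell lacks Tcf15.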
